A study of Penicillium oxalicum with 9 samples.

Results

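POX_b03034, POX_c04377, POX_c04470 and POX_d05267 are 4 genes of the filamentous fungus Penicillium oxalicum that carry the annotation C2H2 zinc finger regulator. They were chosen because the study listed each of them as differentially expressed in both of its deletion mutants, ΔcxrA and Δprmt3, against the parental strain Δku70. The conidiation regulator gene brlA (POX_c03558) also met this rule but was left out, and it is used below for comparison only. The 4 genes are 4 of 11082 features in the expression tables, of which 9822 are annotated genes and 1260 are loci without an annotated identifier. Because the rule used both comparisons with Δku70, the values in those comparisons are given here as a description without a test. The direct comparison of ΔcxrA with Δprmt3 was not part of the rule and was tested, although it rests on the same mutant libraries.

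C2H2 zinc finger proteins bind DNA through short finger-like folds, in each of which cysteines and histidines hold a zinc ion. In filamentous fungi the family includes activators and repressors of plant cell wall-degrading enzyme genes, the carbon catabolite repressor CreA and BrlA, which in the related aspergilli drives the formation of conidia, the asexual spores. The targets of the proteins encoded by the 4 genes are not given in the annotation used here, so nothing is said of their roles.

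Each strain was represented by 3 libraries, described by the study as biological replicates, and RNA abundance was measured by RNA sequencing of mycelium of strain HP7-1 derivatives. Mycelium was first grown on 1% glucose for 24 h and then moved to 2% Avicel, a microcrystalline cellulose, for 24 h at 28 °C. ΔcxrA lacks cxrA (POX_a00763), the gene of a transcription factor that controls cellulase and xylanase genes, in the Δku70 background, and carries the G418 resistance marker. Δprmt3 lacks the protein arginine methyltransferase gene prmt3 (POX_b03080) in the same background and carries the same marker. Its libraries are named for a deletion of POX03070 in the sample labels. Δku70, which the labels call wild type, lacks ku70, a gene of non-homologous end joining, and carries the hygromycin resistance marker but not the G418 marker. All 9 libraries therefore lack ku70, and an effect of the G418 marker shared by both mutants cannot be told apart from a deletion effect in either comparison with Δku70.

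The deleted genes were examined first. POX_a00763 was listed at 0 in all ΔcxrA libraries, against 97.3 to 136 FPKM in Δprmt3 and 90.7 to 121 FPKM in Δku70. POX_b03080 had 0, 0.04 and 0 FPKM in Δprmt3, against 62.9 to 72.6 FPKM in ΔcxrA and 24.9 to 33.4 FPKM in Δku70. POX_b03070, the gene that bears the number in the labels, had 159 to 174 FPKM in the libraries so labelled, against 609 to 838 FPKM in Δku70, so it was expressed there, and the strain is called Δprmt3 below, after the study. The FPKM values of a library summed to 1036054 to 1096738, and 9846 to 10270 features were above 0. The number of fragments per library was not stated and could be estimated only roughly, at about 8720000 to 12340000, from the lowest FPKM values. The estimate took the most frequent low value after multiplication by gene length, a peak of 4 to 26 genes sought within a fixed window. In replicates 2 and 3 of ΔcxrA and replicate 1 of Δku70 the peak lay at the edge of that window. The true depth may therefore lie outside this range. The 20 most abundant features took 11.4% to 13.2% of the sum in ΔcxrA, 24.9% to 25.5% in Δprmt3 and 14.6% to 17.0% in Δku70. FPKM values were therefore divided by a median-of-ratios factor per library, which was 1.23 to 1.28 in ΔcxrA, 0.822 to 0.863 in Δprmt3 and 0.909 to 0.964 in Δku70. The result is called scaled FPKM below, and log2 fold changes come from log2(scaled FPKM + 0.1), which understates changes of features with low values.

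Against Δku70, POX_b03034, POX_c04377 and POX_c04470 were lower in both mutants and POX_d05267 was higher in both, although in ΔcxrA only while libraries were not scaled to actin. The mutants differed from each other in how low 2 of the genes were. POX_c04470 was 16.8-fold lower in ΔcxrA than in Δprmt3, and POX_c04377 was 6.64-fold lower. With median-of-ratios scaling, no difference between the mutants was detected for POX_b03034, and for POX_d05267 the difference did not pass the test. With scaling to actin both were called lower in ΔcxrA, at -1.44 and -2.08 on the log2 scale. That scaling put the median annotated gene at -1.41, however, and called 6414 of 10578 features lower. In these bulk samples, fewer cells of a type and less RNA per cell cannot be told apart.

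**Figure D1:**
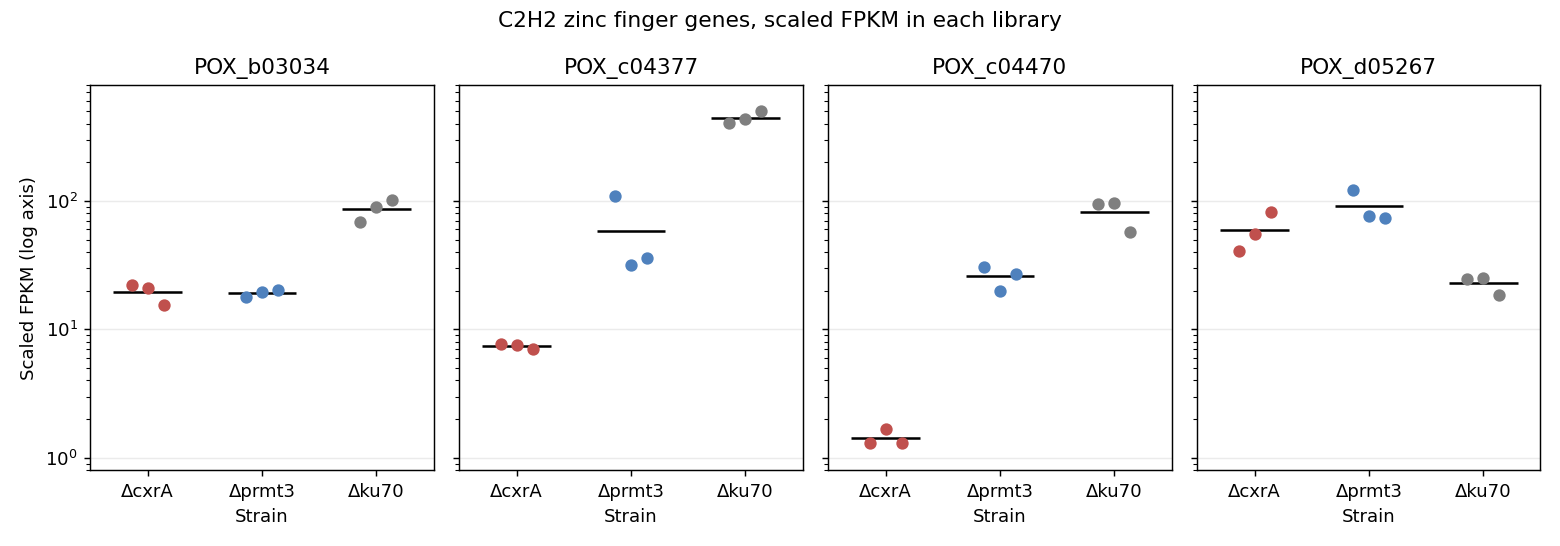
Scaled FPKM (log axis) of the 4 genes in each of the 9 libraries, with ΔcxrA left of Δprmt3 and Δku70; points are libraries and bars are arithmetic means of 3. POX_c04377 and POX_c04470 form 3 separate levels, with ΔcxrA lowest at means of 7.41 and 1.43, whereas the mutants overlap for POX_b03034 and POX_d05267.

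POX_c04470 had 1.67, 2.04 and 1.64 FPKM in ΔcxrA, against 26.4, 16.8 and 22.2 FPKM in Δprmt3 and 89.5, 87.1 and 54.9 FPKM in Δku70. The 3 strains did not overlap, and every ΔcxrA library was below every Δprmt3 library. The mean scaled FPKM was 1.43 ± 0.203 in ΔcxrA, 25.9 ± 5.44 in Δprmt3 and 82.3 ± 21.9 in Δku70 (SD, n = 3 each). The direct log2 fold change of ΔcxrA over Δprmt3 was -4.07 (SE 0.24, 95% interval -4.62 to -3.53), with an adjusted p of 3.01e-06 in limma. Against Δku70, the log2 fold change was -5.72 (SE 0.24) in ΔcxrA and -1.65 (SE 0.24) in Δprmt3. This was the lowest of the 4 genes in ΔcxrA, at the 7.71 percentile of annotated genes, and the rough depth estimate puts it at about 33.6 to 48.3 fragments per ΔcxrA library.

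POX_c04377 was the most abundant of the 4 genes in Δku70 and showed the widest spread between libraries in Δprmt3. It had 9.90, 9.21 and 8.73 FPKM in ΔcxrA, against 93.8, 26.7 and 29.3 FPKM in Δprmt3 and 384, 392 and 484 FPKM in Δku70. The strains did not overlap, but replicate 1 of Δprmt3 was 3.43-fold above the lowest Δprmt3 library on the scaled values. The mean scaled FPKM was 7.41 ± 0.383 in ΔcxrA, 58.7 ± 43.3 in Δprmt3 and 445 ± 51.2 in Δku70 (SD, n = 3 each). The direct log2 fold change was -2.73 (SE 0.40, 95% interval -3.65 to -1.81), with an adjusted p of 0.000459 in limma. Without replicate 1 of Δprmt3 it was -2.17 (SE 0.11). Against Δku70, the log2 fold change was -5.89 (SE 0.40) in ΔcxrA and -3.15 (SE 0.40) in Δprmt3, the second of which was -3.71 without that library. Each SE pools the spread of all 3 strains, and a fit of the ΔcxrA and Δku70 libraries alone gave an SE of 0.10 for the first.

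The comparison of the mutants for POX_b03034 depended on the scaling, with a direct log2 fold change of 0.57 without further scaling and of -1.44, which was called, with scaling to actin. The median annotated gene was at 0.57 and -1.41 in the same settings. The deposited values were 28.2, 25.7 and 19.2 FPKM in ΔcxrA, 15.4, 16.4 and 16.6 FPKM in Δprmt3 and 64.9, 80.9 and 98.5 FPKM in Δku70. On these unscaled values all ΔcxrA libraries were above all Δprmt3 libraries. After scaling the mutants overlapped, with 22.0, 20.9 and 15.3 scaled FPKM in ΔcxrA and 17.9, 19.4 and 20.2 scaled FPKM in Δprmt3. The mean scaled FPKM was 19.4 ± 3.59 in ΔcxrA, 19.2 ± 1.19 in Δprmt3 and 86.5 ± 17.2 in Δku70 (SD, n = 3 each). The direct log2 fold change was 0.0048 (SE 0.18, 95% interval -0.40 to 0.41), with an adjusted p of 0.987 in limma, so the interval leaves room for a difference of either sign. Against Δku70, the log2 fold change was -2.15 (SE 0.18) in ΔcxrA and -2.15 (SE 0.18) in Δprmt3.

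POX_d05267 was the only one of the 4 genes with higher FPKM in the mutants than in Δku70. It had 52.3, 67.2 and 103 FPKM in ΔcxrA, 105, 64.4 and 60.9 FPKM in Δprmt3 and 23.6, 22.9 and 18.0 FPKM in Δku70. Each mutant lay above Δku70 in every library, and the mutants overlapped with each other. The mean scaled FPKM was 59.4 ± 21.2 in ΔcxrA, 90.6 ± 26.5 in Δprmt3 and 22.9 ± 3.67 in Δku70 (SD, n = 3 each). The direct log2 fold change was -0.63 (SE 0.28, 95% interval -1.27 to 0.010), with an adjusted p of 0.0809 in limma. Without replicate 3 of ΔcxrA, the highest of that strain, it was -0.89 with an adjusted p of 0.0194 in limma, still short of the fold threshold. Without replicate 1 of ΔcxrA, the lowest of that strain, it was -0.39 (adjusted p 0.262, limma). Without replicate 1 of Δprmt3, the highest of that strain, it was -0.41 (adjusted p 0.235, limma). Against Δku70, the log2 fold change was 1.33 (SE 0.28) in ΔcxrA and 1.96 (SE 0.28) in Δprmt3, but the first of these was -0.084 when libraries were scaled to the actin gene.

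A feature was counted as called where its adjusted p was under 0.05 and its log2 fold change exceeded 1 in either direction, and 10578 features were tested. All 4 genes were among the features tested, each with values above 0 in all 9 libraries. In the direct comparison 2 of the 4 genes were called, both lower in ΔcxrA, and over all features 29.8% were called, 17.6% higher and 12.2% lower. Of the 439 annotated genes called lower in both mutants against Δku70, 194 (44.2%) were called in the direct comparison, 160 of them lower in ΔcxrA. Of the 3 genes described here that were lower in both mutants, 2 were. In the comparisons with Δku70, where the rule fixed that the 4 genes were listed as changed but not in which direction, 29.7% of all features were called in ΔcxrA (16.4% higher, 13.2% lower) and 11.1% in Δprmt3 (3.59% higher, 7.51% lower), and nothing is read from the count of the 4. Both of those comparisons share the same 3 Δku70 libraries. With 3 libraries against 3, an exact two-sided permutation test of a single gene cannot give a p under 0.1, so each adjusted p depends on the spread that limma shares across features.

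The choice of scaling bears on ΔcxrA more than on the other strains. Actin gene POX_d06005, the reference gene of the study for RT-qPCR, had 113 to 129 FPKM in ΔcxrA, against 26.8 to 31.7 FPKM in Δprmt3 and 31.3 to 35.7 FPKM in Δku70. After median-of-ratios scaling it was still called higher in ΔcxrA than in Δprmt3, by 1.45 (SE 0.080) on the log2 scale, and than in Δku70, by 1.41 (SE 0.080). Scaling every library to this gene put the median annotated gene at a log2 fold change of -1.41 in the direct comparison, and FPKM without further scaling put it at 0.57. POX_c04470 and POX_c04377 stayed lower in ΔcxrA than in Δprmt3 and past both thresholds in each of these settings. The direct value of POX_b03034 without further scaling, 0.57 (adjusted p 0.0196, limma), was the same as that of the median gene to 2 decimals, and with actin scaling its adjusted p was 3.44e-05 in limma. That of POX_d05267 was -0.060 (adjusted p 0.865, limma) without further scaling and -2.08 (adjusted p 0.000109, limma) with actin scaling. Which of these scalings is nearest to RNA amount per cell was not tested.

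**Figure D2:**
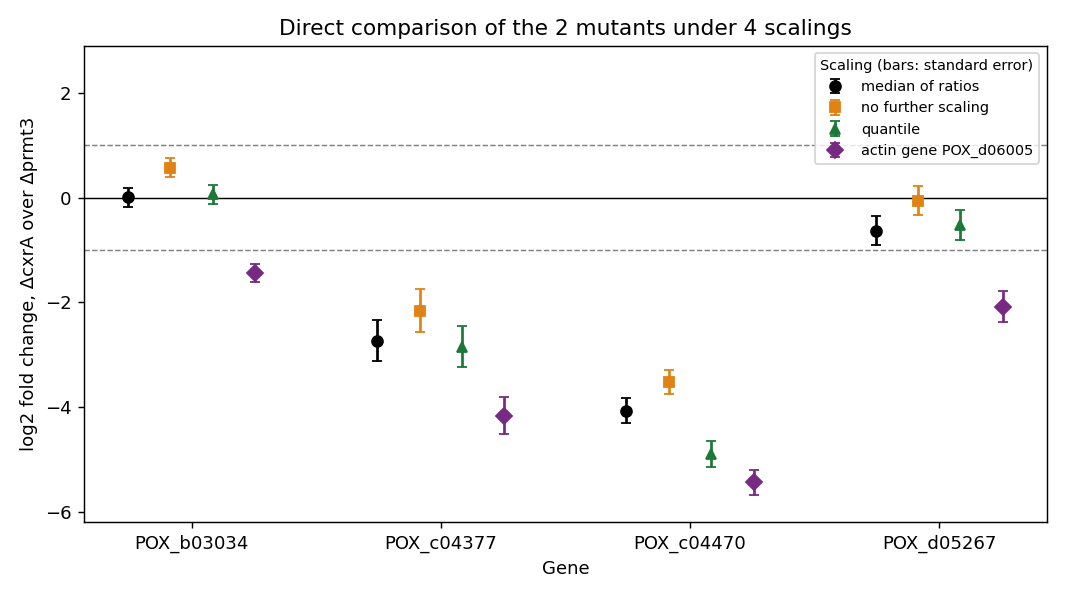
Log2 fold change of ΔcxrA over Δprmt3 for each gene under 4 scalings of the libraries, with standard errors as bars; dashed lines mark a log2 fold change of 1 in either direction. POX_c04377 (-4.17 to -2.16) and POX_c04470 (-5.44 to -3.52) are below the lower line in each, whereas POX_b03034 and POX_d05267 cross it only with actin scaling. Actin scaling put the median annotated gene at -1.41.

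The order of the 4 genes by level differed between the strains. FPKM is per transcript length, so levels can be set against each other within a strain. In ΔcxrA the order of mean scaled FPKM was POX_d05267, POX_b03034, POX_c04377 and POX_c04470, and no neighbours in this order overlapped between libraries. In Δprmt3 it was POX_d05267, POX_c04377, POX_c04470 and POX_b03034, with overlap between the first pair and between the last pair. In Δku70 it was POX_c04377, POX_b03034, POX_c04470 and POX_d05267, where the middle pair overlapped and differed by a ratio of 1.05. POX_d05267 was thus the highest of the 4 in both mutants and the lowest in Δku70, an order that follows in part from how the genes were chosen. The highest gene exceeded the lowest 41.6-fold in ΔcxrA, 4.73-fold in Δprmt3 and 19.5-fold in Δku70. Together the 4 genes summed to 87.6 scaled FPKM in ΔcxrA, 194 in Δprmt3 and 637 in Δku70. POX_c04377 made up 69.9% of the sum in Δku70, whereas POX_d05267 made up 67.7% in ΔcxrA and 46.6% in Δprmt3. Among annotated genes, POX_c04377 stood at the 21.5 percentile in ΔcxrA, the 69.8 percentile in Δprmt3 and the 95.6 percentile in Δku70. Its mean in Δprmt3, used for this percentile and for the order, was raised by replicate 1. That library had 109 scaled FPKM, against 31.7 in replicate 2 and 35.6 in replicate 3. POX_d05267 stood at the 72.2 percentile in ΔcxrA, the 79.4 percentile in Δprmt3 and the 41.4 percentile in Δku70.

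brlA (POX_c03558) met the same rule. It had 2.44, 1.76 and 2.55 FPKM in ΔcxrA, 8.57, 2.69 and 3.70 FPKM in Δprmt3 and 138, 135 and 166 FPKM in Δku70. The mutants did not overlap with Δku70, and brlA lay further below it than any of the 4 genes in each mutant, with log2 fold changes of -6.37 (SE 0.36) in ΔcxrA and -4.86 (SE 0.36) in Δprmt3. The direct log2 fold change was -1.51 (SE 0.36), with an adjusted p of 0.00629 in limma. Replicate 1 was the highest Δprmt3 library for brlA, at 8.57 FPKM, and the direct value was not recomputed without it or under other scalings. The part of conidiation in the values of the 4 genes was not tested.

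The high value of POX_c04377 in replicate 1 of Δprmt3 stood beside a high value of brlA. In replicate 1 of Δprmt3, POX_c04377 was above its strain mean by 1.13 on the log2 scale and brlA by 0.91, while POX_d05267 was above by 0.46, POX_c04470 by 0.27 and POX_b03034 was at -0.099. In that library, 103 of 7222 annotated genes with a mean of at least 10 FPKM were over 2-fold above both other Δprmt3 libraries, against 9 and 65 genes in those. Over the 9 libraries, deviations from the strain means of POX_c04377 and brlA had a Pearson correlation of 0.92, which was 0.46 over the 8 libraries without that one. The correlation with brlA over the 9 deviations was -0.18 for POX_b03034, 0.27 for POX_c04470 and 0.52 for POX_d05267, and without that library it was 0.0054, -0.26 and -0.0090 for the same genes. These correlations are descriptions over libraries that share strain, medium and scaling. The deviations of POX_b03034 and POX_d05267 had a correlation of -0.78 over the 9 libraries.

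The values on either side of the rule were close for some genes. The least changed of the 4 genes in ΔcxrA was POX_d05267, with a log2 fold change of 1.33. Just outside was POX_d05661, a C2H2 gene listed for Δprmt3 alone, with 0.60 in ΔcxrA and 1.31 in Δprmt3. It had 39.1, 46.1 and 60.0 FPKM in ΔcxrA, 85.4, 41.9 and 40.2 FPKM in Δprmt3 and 26.1, 21.2 and 23.9 FPKM in Δku70. Replicate 1 of Δprmt3 was again the highest. The least changed of the 4 in Δprmt3 was POX_c04470, at -1.65. Outside the rule, POX_a00634, listed for ΔcxrA alone, was at -1.17 in Δprmt3 and -1.84 in ΔcxrA. In the fit used here POX_a00634 was called lower in both mutants, although the study did not list it for Δprmt3. POX_g08654, also listed for ΔcxrA alone, was at 0.99 in Δprmt3, just short of the fold threshold, and at 1.81 in ΔcxrA.

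In the copy of the study's lists used here, of which the ΔcxrA list was shortened, 25 genes were annotated as C2H2 for 1 or both mutants, 24 for ΔcxrA and 6 for Δprmt3, with 5 on both lists, so these are minimum counts and the ranks below hold among these 25. The list was chosen on these libraries and is therefore no independent evidence of a change or its direction. In the direct comparison, 14 of the 21 genes other than the 4 described were called, 4 higher and 10 lower in ΔcxrA, beside 17.6% higher and 12.2% lower over all features, and their median log2 fold change was -0.99 against 0.072 over all features. The lowest of these 25 was POX_c04470 at -4.07, followed by POX_f07563 at -2.74 and POX_c04377 at -2.73. Other low values were those of POX_a01599 at -2.43 and POX_a01508 at -2.31. The 4 genes called higher in ΔcxrA were POX_d06068, which averaged 3.16 ± 0.676 scaled FPKM in ΔcxrA (SD, n = 3) and was listed at 0 in all Δprmt3 libraries, POX_a00092 at 2.40, POX_e07047 at 1.74 and POX_g09274 at 1.41. By level among the 25 genes, POX_c04470 ranked 25 in ΔcxrA, 16 in Δprmt3 and 14 in Δku70, and POX_c04377 ranked 20 in ΔcxrA, 13 in Δprmt3 and 2 in Δku70.

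**Figure D3:**
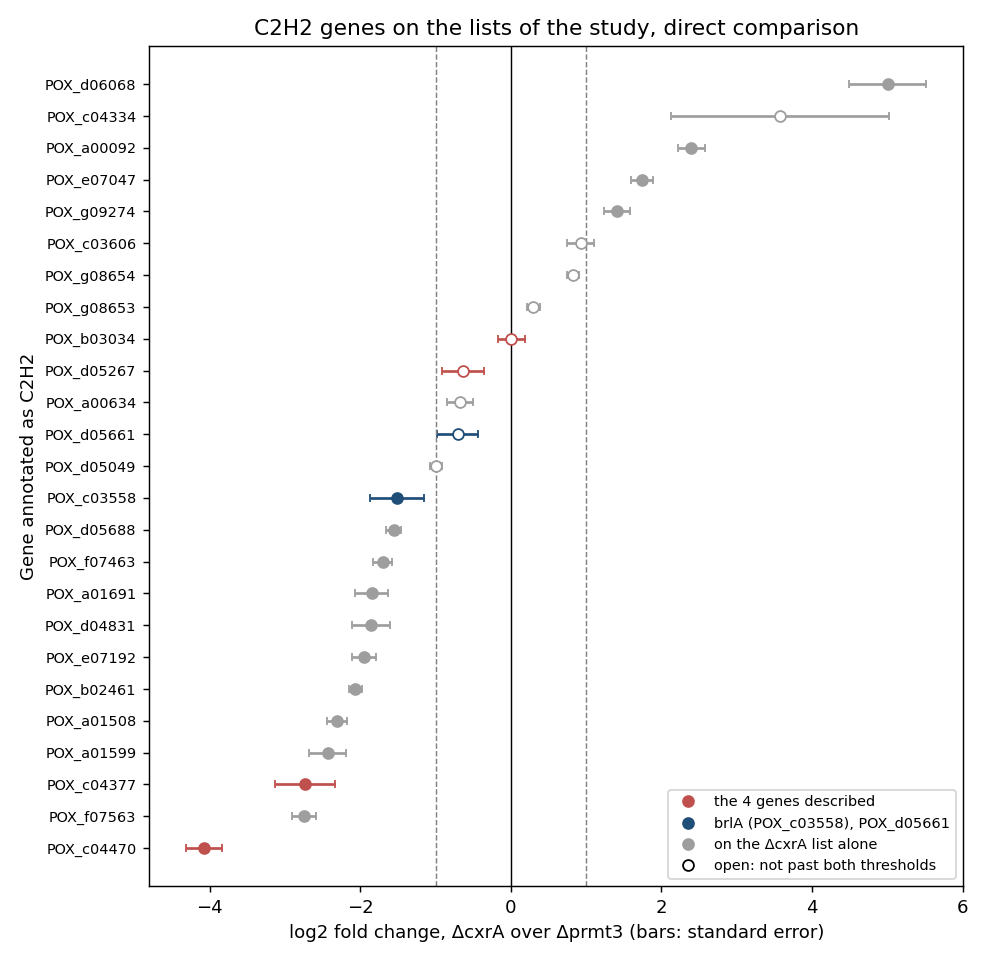
Log2 fold change of ΔcxrA over Δprmt3 (x axis, with standard errors) for the 25 C2H2 genes on the lists of the study, ordered by value; filled points passed both thresholds and dashed lines mark a log2 fold change of 1 in either direction. POX_c04470 (-4.07) is lowest, POX_c04377 (-2.73) is the lowest but 2, and POX_b03034 and POX_d05267 lie between the dashed lines.

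The genes whose profiles were most like those of the 4 genes were found by the root mean square difference of log2 values, each gene centred on its own mean, over 9 libraries and 7222 annotated genes with a mean of at least 10 FPKM. For POX_b03034 these were POX_c04234 (difference 0.19), POX_c04236 (0.21) and POX_c04252 (0.23), and 68 genes lay within 0.5. POX_c04234 had a mean scaled FPKM of 38.4 in ΔcxrA, 37.1 in Δprmt3 and 181 in Δku70. For POX_c04377 the nearest genes were POX_h09484 (0.30), POX_g09079 (0.38) and POX_g08878 (0.39), and 9 genes lay within 0.5. POX_h09484 averaged 5.62 scaled FPKM in ΔcxrA, 32.4 in Δprmt3 and 242 in Δku70, and its highest Δprmt3 library was also replicate 1. For POX_c04470 they were POX_c04504 (0.28), POX_g08692 (0.31) and POX_e06280 (0.35), again with 9 genes within 0.5. POX_c04504 averaged 1.72 scaled FPKM in ΔcxrA, 23.9 in Δprmt3 and 95.9 in Δku70. For POX_d05267 they were POX_c03546 (0.32), POX_e06490 (0.33) and POX_c03902 (0.35), and 53 genes lay within 0.5. POX_c03902 is annotated as a homeobox transcription factor, and the other 11 of these genes as hypothetical proteins.

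**Figure D4:**
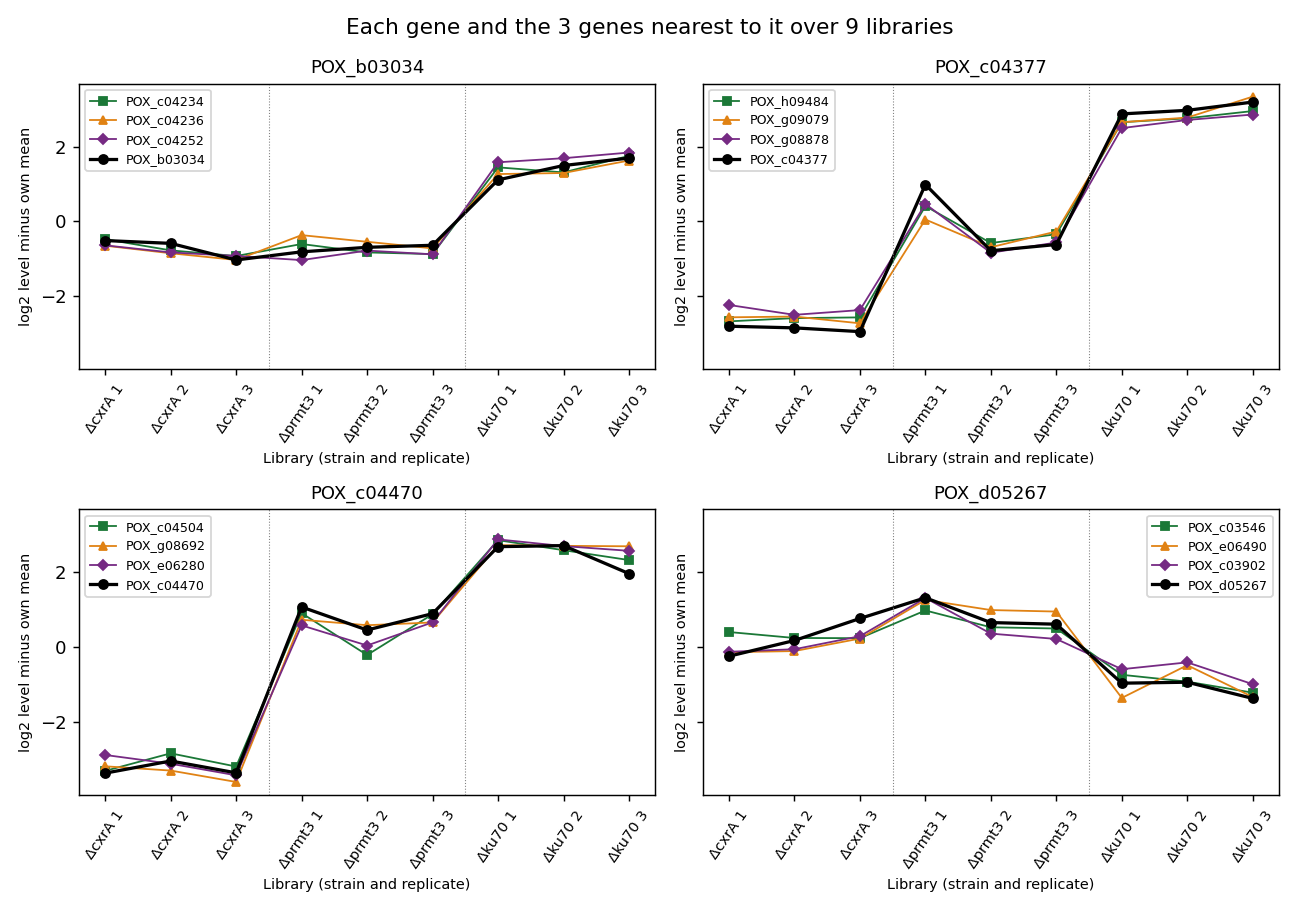
Log2 level minus the gene's own mean in each of 9 libraries for each of the 4 genes (black circles) and the 3 genes nearest to it (coloured). POX_c04377 and POX_c04470 and their nearest genes step up from ΔcxrA, the lowest, through Δprmt3 to Δku70. POX_c04377 and POX_h09484 share a high replicate 1 of Δprmt3.

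The genes beside the 4 genes did not share one pattern. Of the 16 annotated genes that lie within 2 places on either side, 14 were tested. In the direct comparison 8 of the 14 were called, 4 higher and 4 lower, beside 29.8% of all features. Against Δku70, 4 were called in ΔcxrA, 1 higher and 3 lower, beside 29.7% of all features, and 2 in Δprmt3, 1 higher and 1 lower, beside 11.1%. POX_c04468, next to POX_c04470, was called lower in ΔcxrA than in Δprmt3, at -4.03 on the log2 scale. Its mean was only 4.65 FPKM, however, and it was listed at 0 in 2 of the 3 ΔcxrA libraries. The mutants overlapped for POX_c04468, with 2.58 scaled FPKM in replicate 1 of ΔcxrA and 1.93 in replicate 1 of Δprmt3. POX_b03032, the second gene before POX_b03034, was called lower in Δprmt3 than in Δku70, at -2.01, and was at 0.75 in ΔcxrA, which was not called. POX_c04377 and POX_c04470 lie on the same chromosome with 88 annotated genes between them.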

How the data were processed

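The authors trimmed reads with SOAPnuke, aligned them with HISAT2 and Bowtie2, and deposited FPKM values per gene from RSEM, 1 table per library. The genome build is not given in the sources used here. The study called differential expression with DESeq2 on counts, which were not used here. FPKM values of 9 libraries were divided by median-of-ratios factors over the 9335 features above 0 in all libraries. log2(scaled FPKM + 0.1) of the 10578 features above 0 in any library was fitted with limma 3.58.1 (trend) in R 4.3.3, 3 strains in 1 fit, with Benjamini-Hochberg adjustment per comparison. The fit was run on simulated data with independent errors and as many rises as falls, a setting that does not test the choice of scaling. The members and lists were chosen with earlier results of these data known. The genes named are the 4 genes, brlA, POX_d05661, the deleted genes, actin, the nearest profiles, and neighbours by counts. Genes named from the study's C2H2 list and neighbours named singly were chosen after their values were seen. A list of C2H2 genes by protein motif was planned, but no protein table was used here, so the study's annotation served, read from a partly shortened table. RefSeq assembly ASM172317v3, which held 9718 of the annotated identifiers, gave gene lengths and neighbours only. The labels do not say whether libraries came from separate cultures, and no set of mycelium markers was checked.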

Additional observations from a re-analysis of the deposited data

How the results depend on the processing

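Depth was known only roughly, and the precision of each value rests on 3 libraries per strain. The fold changes of the 4 genes and the counts of called features and of called C2H2 list genes were recomputed under 18 alternatives, 9 of which left out 1 library. Values of other genes, correlations, level orders, nearest profiles, neighbours and runs were not recomputed, apart from the correlations with brlA. POX_c04377 and POX_c04470 kept their direction and calls in the direct comparison under all 18, with adjusted p of 3.60e-06 to 0.00259 and 1.26e-07 to 4.90e-05 in limma. For POX_b03034 the direct log2 fold change was -1.44 with actin scaling and -0.092 to 0.17 with 1 library left out. For POX_c04377 that range was -3.06 to -2.17, for POX_c04470 -4.25 to -3.95 and for POX_d05267 -0.89 to -0.39. For POX_d05267 actin scaling gave -2.08 in the direct comparison and -0.084 in ΔcxrA against Δku70. Actin scaling, which moved the median annotated gene by -1.41 and -1.37, called 7042 features in the direct comparison, 628 higher and 6414 lower, and 6896 in ΔcxrA against Δku70, 530 higher and 6366 lower. Without further scaling, 3322 were higher and 646 lower in the direct comparison, against 1866 and 1291 as reported, and 2745 higher and 917 lower in ΔcxrA against Δku70, against 1737 and 1400 as reported. With a pseudocount of 1 the direct value of POX_c04470 was -3.45, and with quantile normalization -4.90. Replicate numbers did not pair the samples: correlations of deviations between same-numbered libraries ran from -0.069 to 0.059 over 9 pairs. With the replicate number as a block, the direct comparison called 3114 features, and the direct adjusted p in limma was 0.00133 for POX_c04377, 4.90e-05 for POX_c04470, 0.132 for POX_d05267 and 0.989 for POX_b03034, so no call of the 4 genes changed. Alternatives on a motif-based C2H2 list were not run, because no protein table was used.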

Other observations

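The 3 genes nearest in profile to POX_b03034 lie in 1 stretch of the RefSeq gene order in which adjacent genes were lower in both mutants. Over all annotated genes tested, 439 of 9363 (4.69%) were called lower than in Δku70 in both ΔcxrA and Δprmt3. From POX_c04232 to POX_c04253 all 22 annotated genes were, but the run was delimited by that call, so this share was fixed in advance. It was the longest unbroken run of this kind in that order, followed by a run of 8 genes, POX_c04512 to POX_c04519. The log2 fold changes in the run of 22 were -9.94 to -2.23 in ΔcxrA and -6.40 to -1.94 in Δprmt3, with both comparisons using the same Δku70 libraries. In the direct comparison 14 of the 22 were called, all lower in ΔcxrA, with a median of -1.61. Of all 439 genes lower in both mutants, 194 (44.2%) were called there, 160 of them lower in ΔcxrA. POX_c04234, POX_c04236 and POX_c04252, which resemble POX_b03034, had the smallest falls of the run in both mutants, and none of them was called in the direct comparison. All 22 are annotated as hypothetical proteins, and the run was chosen after its values were seen. POX_b03034 itself lies on another chromosome.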
